A study of Mus musculus with 6 samples.

Results

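The BCL2 family decides whether a cell releases cytochrome c from its mitochondria and dies by apoptosis, and 10 of its genes were followed here by their symbols: the anti-apoptotic Bcl2, Bcl2l1 and Mcl1, the effectors Bax and Bak1, and the BH3-only genes Bid, Bad, Bcl2l11, Bbc3 and Pmaip1. Each symbol matched 1 of the 53618 named rows of the deposited table. Of the 10 genes, 9 passed the filter on low values and were among the 12298 genes tested. Bulk RNA-seq had been carried out on leukemia cells driven by AE9a, a truncated form of the AML1-ETO fusion protein, which was introduced into fetal liver cells with a GFP-bearing retrovirus and then transplanted into young adult wild-type C57BL/6 recipients of both sexes. The leukemia of both groups was Usp18+/f UBCER-Cre, in which Cre is active in any tissue once tamoxifen is given. When recipients were sick they received corn oil (genotype label Usp18+/f, 3 mice) or tamoxifen in corn oil (genotype label Usp18+/Δ, 3 mice), and GFP+Lin-c-Kit+ splenocytes were sorted 3 days after the first injection, with 1 library per mouse. Tamoxifen was given to 1 group only, so the drug and the loss of a Usp18 allele cannot be told apart. The comparison bears on how apoptosis genes stand in cells that are meant to have lost an allele of Usp18, a negative regulator of type I interferon signaling.

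Anti-apoptotic members bind and hold their pro-apoptotic relatives at the outer mitochondrial membrane. BH3-only proteins are made or activated in response to stress, occupy the groove of the anti-apoptotic members or activate the effectors directly, and BAX and BAK then form pores. In myeloid leukemia MCL1 and BCL2 are known survival factors, and BBC3 (PUMA), PMAIP1 (NOXA) and BAX are classical transcriptional targets of p53.

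The libraries held 19164795 to 23770537 recovered reads in named genes. Usp18 itself went against its labels, with normalized counts of 217, 214 and 176 under the oil label and of 477, 329 and 284 under the tamoxifen label, so all directions below are between libraries as labelled. Counts over a whole gene do not separate an intact from a deleted allele, and whether any label was exchanged was not tested. The library labelled tamoxifen 1 stood apart from the other 5. Mitochondrial genes took 0.00923% of its reads against more than 1% and at most 1.56% elsewhere, and how far it departed from the others depended on the GC content of the gene (Spearman's rho across genes 0.68, against -0.21 to -0.00025). The sorted cells carried Kit at 4687 to 10976 normalized counts, and erythroid genes such as Klf1 were high in every library. The myeloid marker Mpo was low, but higher under the tamoxifen label without overlap, at 6.39, 20.2 and 7.28 against 0.90, 0 and 4.64 under oil. Summed macrophage markers (8 genes) were higher under the tamoxifen label, at 236 to 326 against 86.8 to 197, and summed neutrophil markers (5 genes) stood at 26.4 to 39.6 against 9.88 to 22.2, with Ly6g at 0 throughout. Mast cell and basophil markers (5 genes) overlapped between the groups when summed, at 16627 to 19055 under oil and 18418 to 25399 under tamoxifen, but 2 of them were higher under tamoxifen without overlap. These were Tpsb2, at 46.0 to 153 against 7.19 to 16.4, and Mcpt8, at 60.1 to 96.4 against 26.0 to 40.9. The T cell defining genes Cd3e and Cd8a, Ms4a1 of B cells and Ncr1 of NK cells were at 0 in all 6 libraries. Summed T cell markers (5 genes) were at 0 under oil and at 0.91 to 4.04 under tamoxifen, and summed B cell markers (5 genes) overlapped, at 4.64 to 9.65 under oil and 6.06 to 24.3 under tamoxifen. Of these, Cd79b alone was higher without overlap (5.05 to 16.6 against 0.93 to 2.89), while Cd79a, at up to 8.18 against up to 6.75, overlapped. The part of these markers in the results was not tested.

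In the libraries labelled oil, Mcl1 was the most abundant member per length. Its level was 1273 ± 105 normalized counts per kilobase of merged exons (SD, n = 3), ahead of Bak1 at 756 ± 39.9 and Bax at 635 ± 62.2. Bad (307 ± 21.0), Bid (233 ± 6.82), Bcl2l1 (205.0 ± 13.5) and Bbc3 (196 ± 28.7) formed a middle tier, and Bcl2l11 followed at 25.7 ± 3.15. Bcl2 came near the bottom at 1.11 ± 0.42 and Pmaip1 was at most 1 read in any library. The ranges of neighbours in this order were separate except for Bcl2l1 and Bbc3. Under the tamoxifen label the order kept Mcl1 first (1429 ± 172) and Bcl2l11, Bcl2 and Pmaip1 last, while Bbc3 stood next after the effectors at 398 ± 137 per kilobase. There, every neighbour from Bax down to Bcl2l1 overlapped with the next. Merged exons count the bases of all annotated isoforms, so these levels understate genes with long unused exons.

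**Figure D1:**
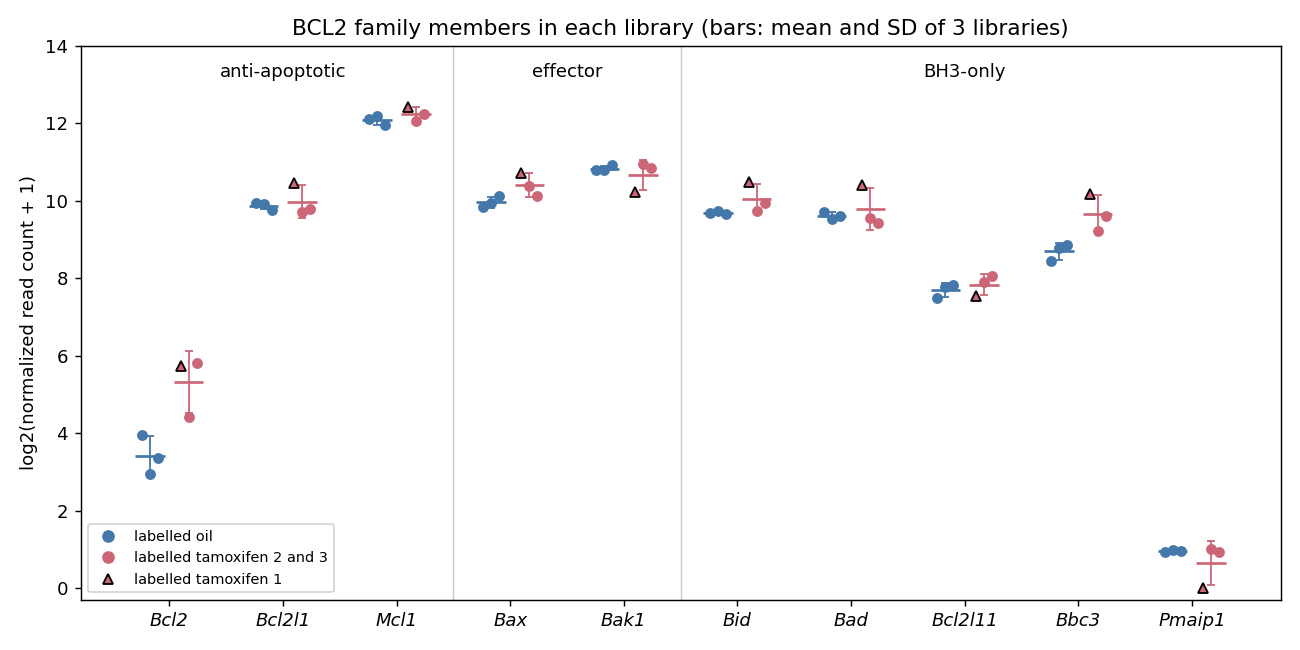
The vertical axis is log2(normalized read count + 1) for the 10 members, ordered by role. Points are single libraries (blue labelled oil, red labelled tamoxifen, triangle tamoxifen 1) and bars are the mean and SD of 3 libraries. For Bcl2 and Bbc3 the red points lie above the blue ones, while most other members overlap.

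Under the tamoxifen label, Bcl2 and Bbc3 stood highest relative to oil, at 4.21 and 2.03 times the oil mean. Neither passed the test over all genes: with limma, 0 of the 9 tested members had an adjusted p under 0.05, against 0 of 12298 genes (0.00%), and DESeq2 and edgeR on the recovered reads of all 6 libraries also called 0 members. The limma adjusted p-values of the members lay between 0.666 and 0.823. At an unadjusted p under 0.05 there were 2 members, Bcl2 and Bbc3, and 550 of all genes tested (4.47%). In 3 members (Bcl2, Bid and Bbc3) every tamoxifen value exceeded every oil value, and in 0 members the reverse held, beside 7.86% and 9.69% of all genes. The log2 fold change was positive in 8 of the 9 members, beside 5958 of 12298 genes. The median was 0.18 in the members and -0.017 over all genes tested. This count of signs depends on tamoxifen 1: Bcl2l1 and Bad were negative without that library and after GC correction, while Bak1 was positive without it. Bcl2 reached the filter in 3 libraries only through those labelled tamoxifen, so its place in these counts is no support. Among the other 8 tested members, 1 was at an unadjusted p under 0.05, 2 did not overlap and 7 had a positive log2 fold change, with a median of 0.17. Fewer cells of a type and less RNA per cell cannot be told apart in bulk libraries.

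Among the anti-apoptotic members, Bcl2, the founding member and the target of venetoclax, was barely expressed. Bcl2 (GRCm38 chromosome 1, 106538178 to 106714274, minus strand) had normalized counts of 14.4, 6.75 and 9.29 under oil and of 52.4, 20.2 and 55.5 under tamoxifen. These rest on 16, 7 and 10 reads against 41, 20 and 61. All 3 libraries labelled tamoxifen were higher, with tamoxifen 2 closest to the oil range. Bcl2 had a log2 fold change of 1.90 (standard error 0.50, 95% interval 0.70 to 3.11, limma adjusted p = 0.666). Only 1 of the 3 libraries labelled oil reached the minimum of 10 used by the filter, so Bcl2 entered the test through the group where it was high. Its antisense neighbour D630008O14Rik overlaps 6.09% of its exon bases, and without a stated strand setting reads of such a pair cannot be separated. The macrophage and neutrophil marker sums, Mpo, Cd79b, Tpsb2 and Mcpt8 given above stood higher under the same label, also at low levels. Their part in the difference was not tested.

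Mcl1, a short-lived protein that holds BAK, was the most abundant of the 3 anti-apoptotic members. Mcl1 (chromosome 3, 95658788 to 95663176, plus strand) had 4468, 4637 and 3946 normalized counts under oil and 5475, 4302 and 4874 under tamoxifen. The groups overlapped, and the log2 fold change was 0.16 (95% interval -0.20 to 0.53, limma adjusted p = 0.667). It was 0.077 without tamoxifen 1 and 0.095 without oil 3. Per kilobase, Mcl1 made up 86.0% ± 0.48 of the 3 anti-apoptotic members under oil and 86.3% ± 2.25 under tamoxifen (SD, n = 3). Bcl2l1, which encodes BCL-XL (chromosome 2, 152780668 to 152831728, minus strand), had 991, 959 and 871 normalized counts under oil and 1406, 832 and 878 under tamoxifen. Tamoxifen 1 was above all oil libraries and tamoxifen 2 below all of them. For Bcl2l1 the log2 fold change was 0.10 (95% interval -0.45 to 0.66), and -0.13 without tamoxifen 1.

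The 2 effectors differed in the sign of their fold change, and neither passed the test. Bax (chromosome 7, 45461697 to 45466898, minus strand), the pore former that shuttles between cytosol and mitochondria, had 919, 975 and 1109.6 normalized counts under oil and 1693, 1335 and 1108.5 under tamoxifen. The lowest tamoxifen library lay just under the highest oil library, so the groups overlapped by about 1 normalized count. This gave a log2 fold change of 0.44 (95% interval -0.031 to 0.92, limma adjusted p = 0.666), and of 0.28 without tamoxifen 1 (limma adjusted p = 0.365). Bak1 (chromosome 17, 27019810 to 27029009, minus strand), which sits in the outer membrane, had 1764, 1764 and 1930.4 under oil and 1198, 1979 and 1839.7 under tamoxifen. Tamoxifen 1 was the lowest of the 6 libraries and tamoxifen 2 the highest. Bak1 had a log2 fold change of -0.15 (95% interval -0.68 to 0.37), and of 0.070 without tamoxifen 1. Exons of Ggnbp1 on the other strand overlap Bak1, and Gm45808 on the same strand shares 12.18% of the exon bases of Bax.

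Bbc3 was the BH3-only member that stood out. It encodes PUMA, which binds all anti-apoptotic members and is induced by p53 after DNA damage. Bbc3 (chromosome 7, 16308393 to 16318205, plus strand) had 348, 441 and 462 normalized counts under oil and 1166, 596 and 778 under tamoxifen, from 387, 457 and 498 against 912, 590 and 855 reads. All 3 libraries labelled tamoxifen exceeded the oil range, tamoxifen 1 by the most. Bbc3 had a log2 fold change of 0.98 (standard error 0.28, 95% interval 0.31 to 1.64, limma adjusted p = 0.666). Without tamoxifen 1 it was 0.72 (95% interval 0.36 to 1.07, limma adjusted p = 0.130), with 3 members and 12.1% of all genes then at an unadjusted p under 0.05. DESeq2 on the recovered reads of those 5 libraries gave Bbc3 an adjusted p of 0.00325, and edgeR called 0 members. Bbc3 was the 1 member that DESeq2 called, beside 231 of the 23788 genes it fitted (0.971%). Some of these genes, Pmaip1 among them, were given no adjusted p and could not be called. The DESeq2 shares therefore understate the share among callable genes and are not on the same base as the limma shares. With library weights in limma, Bbc3 was called (adjusted p = 0.00586), beside 6.36% of all genes. Bcl2 had an adjusted p of 0.00878 in that fit, with the same limit that it entered the test through the group where it was high. With library weights 5 members were at an unadjusted p under 0.05, beside 23.4% of all genes. DESeq2 on all 6 libraries gave adjusted p-values of 0.175 for Bbc3 and 0.0821 for Bcl2.

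Bbc3 and Bax were the members whose promoter windows held a match to the p53 motif, and their bases upstream of the RefSeq start site (GRCm38.p6) are shown for that reason, 5′ to 3′ on the strand of the gene. The capitals mark the match. In Bbc3 (chr7:16309333-16309582, plus strand, the first of 3 windows) it is a full site of 2 adjacent half-sites with at most 3 mismatches outside their cores, from position -97 to -78. In Bax (chr7:45466899-45467148, minus strand) it is a single half-site from -201 to -192. No annotated GENCODE exon lies in either stretch.
Bbc3: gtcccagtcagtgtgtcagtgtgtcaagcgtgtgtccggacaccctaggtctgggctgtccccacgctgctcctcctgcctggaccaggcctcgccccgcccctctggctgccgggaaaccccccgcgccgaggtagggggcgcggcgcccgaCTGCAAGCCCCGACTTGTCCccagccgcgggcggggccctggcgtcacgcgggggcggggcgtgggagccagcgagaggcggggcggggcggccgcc
Bax: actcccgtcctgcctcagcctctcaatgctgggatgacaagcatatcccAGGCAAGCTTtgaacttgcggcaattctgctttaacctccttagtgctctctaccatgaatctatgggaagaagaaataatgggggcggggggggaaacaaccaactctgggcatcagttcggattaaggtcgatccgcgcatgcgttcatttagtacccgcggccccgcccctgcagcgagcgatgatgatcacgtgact

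These windows of 250 bases before and 50 after a start were available for 9 members, in 15 windows. The p53 half-site occurred in 1 of these windows and in 8.36% of all 32851 windows. The full site, a search added after the Bbc3 sequence had been seen, occurred in 1 and in 0.572%. The interferon-responsive ISRE core GAAANNGAAA (3.44% of all windows) and the STAT-binding GAS core TTCNNNGAA (8.30%) were found in 0 member windows, and the RUNX core TGTGGT (16.8%) in that of Bak1. All motifs were searched on both strands. A match describes the letters of a window and does not show binding.

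The other BH3-only members differed less between the groups. Bid (chromosome 6, 120891930 to 120916853, minus strand), which caspase-8 cleaves to link death receptors to mitochondria, had 824, 854 and 806 normalized counts under oil and 1424, 856 and 992 under tamoxifen. The groups did not overlap, but tamoxifen 2 lay only just above the highest oil library. Bid had a log2 fold change of 0.36 (95% interval -0.15 to 0.88), and of 0.15 without tamoxifen 1. Bcl2l13 on the opposite strand, at 6583 to 6999 normalized counts under oil and so far more abundant, overlaps 17.69% of the exon bases of Bid. Bad (chromosome 19, 6941861 to 6951899, plus strand), which survival kinases inactivate by phosphorylation, had 843, 736 and 775 under oil and 1365, 746 and 686 under tamoxifen. Tamoxifen 1 was high and tamoxifen 3 was below every oil library. For Bad it was 0.18 (95% interval -0.49 to 0.85) with all libraries and -0.13 without tamoxifen 1. Gpr137 on the opposite strand overlaps 20.48% of its exon bases.

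Bcl2l11, which encodes BIM (chromosome 2, 128126038 to 128162547, plus strand), had 178, 216 and 226 normalized counts under oil and 184, 238 and 267 under tamoxifen. Here tamoxifen 1 was the low library of its group, and the other 2 lay above the oil range. The log2 fold change was 0.14 (95% interval -0.39 to 0.68), and 0.30 without tamoxifen 1 (limma adjusted p = 0.478). Pmaip1, which encodes NOXA, the partner of MCL1 (chromosome 18, 66458533 to 66465565, plus strand), had 1, 1 and 1 reads under oil and 0, 1 and 1 under tamoxifen. All of these are under the floor of 3 reads, so no difference was detectable at this depth.

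**Figure D2:**
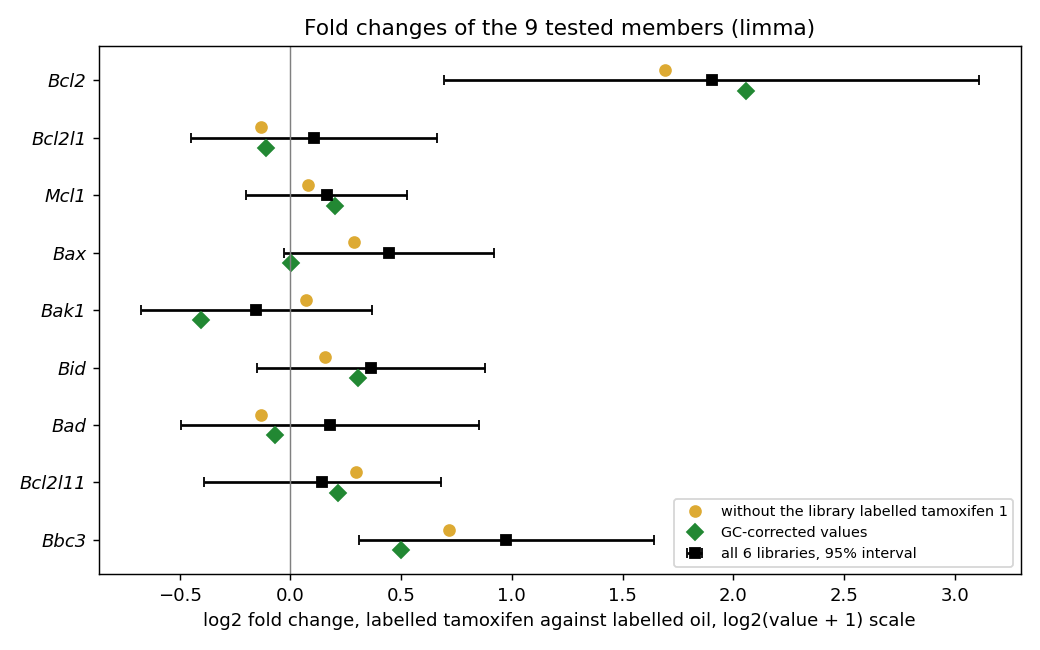
The horizontal axis is the log2 fold change of the 9 tested members, labelled tamoxifen against labelled oil. Squares with bars are limma estimates and 95% intervals over 6 libraries, circles leave out tamoxifen 1, and diamonds use GC-corrected values. The intervals of Bcl2 and Bbc3 lie above 0, and Bcl2l1, Bak1 and Bad change sign in 1 or both of the other estimates.

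Part of the members' values in tamoxifen 1 lay near what genes of like GC content showed there. Protein-coding genes with exons below 45% GC had a median deviation of -1.09 on the log2 scale in this library, and those of 60% or more had 1.18. In the other 5 libraries the medians of these GC classes lay between -0.078 and 0.057. Bbc3 and Bax have the highest GC content of the members, 65.2% and 63.5%. In tamoxifen 1, Bbc3 deviated by 1.33 and Bax by 0.61 from the median of the other 5 libraries. Bad at 57.1% GC deviated by 0.87 and Bcl2l1 at 55.9% by 0.68, near the median of 0.79 for genes of 55% to 60%. Bak1 at 57.1% lay at -0.62, and Bcl2 at 46.3% lay at 1.80, away from their classes. Tamoxifen 2 and 3 also lay above the median of the other libraries for Bbc3, by 0.37 and 0.75, and for Bcl2, by 0.46 and 1.88.

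After a correction that removed the GC trend from each library, the log2 fold change of Bcl2 was 2.06 (limma adjusted p = 0.558) and that of Bbc3 was 0.50 (95% interval 0.05 to 0.95, adjusted p = 0.680). All 3 corrected values labelled tamoxifen remained above the oil range in both genes, as in 7.25% of all genes, while the corrected values of Bid overlapped. For Bbc3 this was narrow, with a corrected log2 value of 8.976 in tamoxifen 1 against 8.913 in oil 3, the highest oil library. For Bax the corrected log2 fold change was 0.0038, for Bid 0.31 and for Bak1 -0.40. The corrected values of Bcl2l1 (-0.11) and Bad (-0.070) were below 0.

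**Figure D3:**
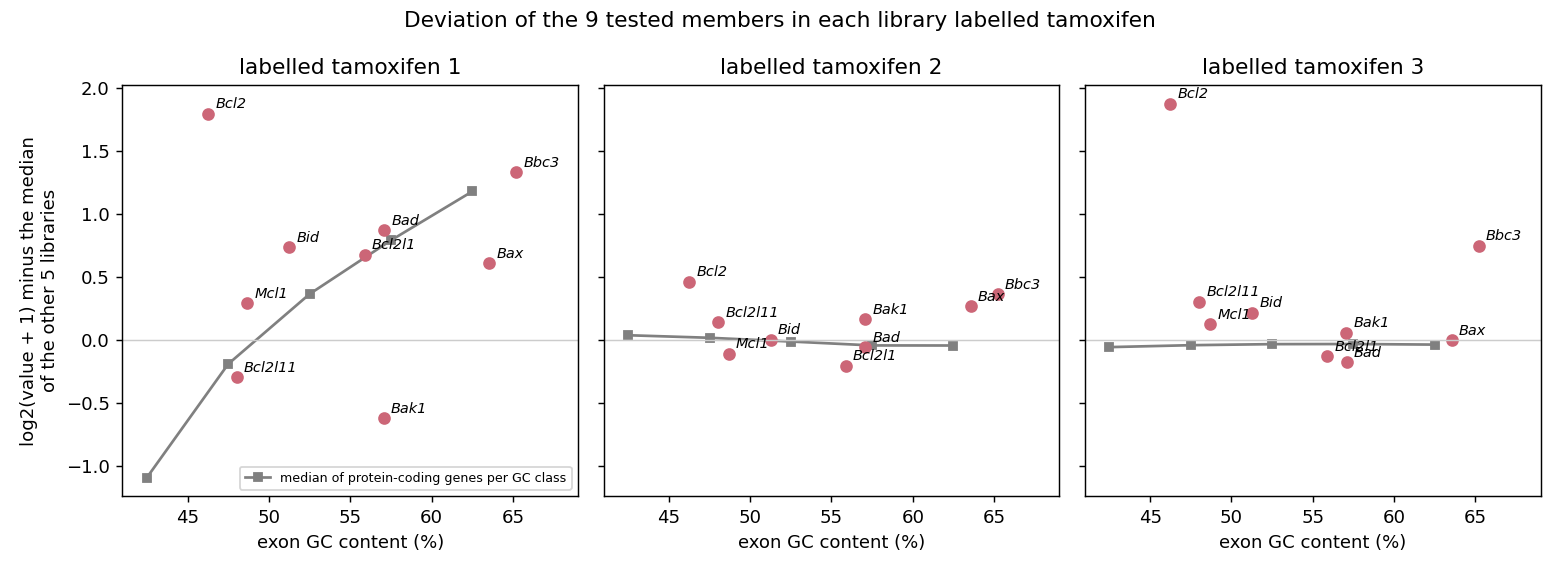
Each panel is 1 library labelled tamoxifen. The horizontal axis is the exon GC content in percent, and the vertical axis is log2(value + 1) minus the median of the other 5 libraries. Red points are the 9 tested members, and grey squares are medians of protein-coding genes in GC classes, each drawn at the middle of a 5-point class with the outer classes open-ended. The grey line climbs from -1.09 to 1.18 in tamoxifen 1 and is nearly flat in the other panels.

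Summed per kilobase, the anti-apoptotic members gave 1525, 1566 and 1345 normalized counts under oil and 1914, 1442 and 1624 under tamoxifen. The effectors gave 1316, 1352 and 1506 under oil and 1572, 1669 and 1468 under tamoxifen. Both of these sums overlapped between the groups. The BH3-only sum was 748, 763 and 776 under oil and 1506, 843 and 947 under tamoxifen, and here the groups were separate. Of this sum, Bbc3 made up 164, 208 and 218 under oil and 549, 281 and 366 under tamoxifen. Bad and Bcl2l11 overlapped between the groups and Bid was only just separate, so the sum does not describe the BH3-only members as a class. The ratio of the BH3-only to the anti-apoptotic sum was 0.49, 0.49 and 0.58 under oil and 0.79, 0.58 and 0.58 under tamoxifen. With tamoxifen 1 set aside, the remaining ratios of 0.585 and 0.583 stood next to the highest oil value of 0.577. The ratio of the effector to the anti-apoptotic sum overlapped, at 0.86, 0.86 and 1.12 under oil and 0.82, 1.16 and 0.90 under tamoxifen. The ratio of Bbc3 to Mcl1 normalized counts was 0.0778, 0.0951 and 0.117 under oil and 0.213, 0.139 and 0.160 under tamoxifen. These sums weigh each member by its level, and the sums and ratios were given no test.

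Other relatives of the family were in part not measured, and none passed the limma test over all 6 libraries. Of 5 further anti-apoptotic genes, Bcl2a1a, Bcl2a1b, Bcl2a1d and Bcl2l10 were at 3 reads or fewer in every library, the first 3 being near-identical copies among which reads may be split. Bcl2l2, which encodes BCL-W, was tested and had a log2 fold change of -0.14. Of 10 pro-apoptotic and other relatives, 7 were tested, 0 passed an adjusted p of 0.05 in limma and 1 an unadjusted p of 0.05 (4.47% of all genes), 0 were higher and 2 lower without overlap (7.86% and 9.69% of all genes), and the median log2 fold change was -0.14. Hrk, Bcl2l14 and Bcl2l15 were at 3 reads or fewer. The 2 lower genes were the mitophagy receptors Bnip3 and Bnip3l. Bnip3, a hypoxia-induced gene, had 292, 259 and 242 normalized counts under oil and 25.6, 173 and 128 under tamoxifen, a log2 fold change of -1.65 (limma adjusted p = 0.666) and -0.82 without tamoxifen 1. Without tamoxifen 1, DESeq2 called Bnip3 (adjusted p = 0.0144) beside 231 of 23788 genes fitted (0.971%). Limma with library weights on all 6 libraries also called it (adjusted p = 0.0101), beside 6.36% of all genes. Bnip3l, which clears mitochondria from maturing red cells, had 8019, 8049 and 7250.0 under oil and 5147, 6674 and 6609 under tamoxifen (log2 fold change -0.35), and the log2 fold change was 0.036 after GC correction. Bcl2l12 and Bcl2l13 had log2 fold changes of -0.53 and -0.10, and of -0.33 and -0.040 without tamoxifen 1.

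Downstream of the pores, 17 of 17 genes of the apoptosome, caspases and inhibitors of apoptosis were tested. Of these, 0 passed an adjusted p of 0.05 in limma and 0 an unadjusted p of 0.05, 1 was higher and 1 lower without overlap (beside 7.86% and 9.69% of all genes), and the median log2 fold change was -0.17, which was -0.069 without tamoxifen 1 and 0.015 after GC correction. Without tamoxifen 1, 4 of these genes were at an unadjusted p under 0.05 beside 12.1% of all genes, and with library weights the inhibitor of apoptosis gene Birc5 passed (log2 fold change -0.45, adjusted p = 0.0305) beside 6.36%. Endog, a mitochondrial nuclease, was higher without overlap (log2 fold change 0.87, and 0.45 without tamoxifen 1), and the mitochondrial protease Htra2 had log2 fold changes of 0.46 with and 0.14 without that library.

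Of 17 regulators of the members, 16 were tested and Trp73 was at 3 reads or fewer. None passed an adjusted p of 0.05 or an unadjusted p of 0.05 in limma over all 6 libraries (0 and 0 genes). Without tamoxifen 1, 3 regulators were at an unadjusted p under 0.05 beside 12.1% of all genes, and with library weights Btrc passed (adjusted p = 0.0426) beside 6.36%. Trp53 and Ddit3 were higher and Btrc lower without overlap (7.86% and 9.69% of all genes). Ddit3, the stress factor CHOP that can induce Bcl2l11 and Bbc3, had 344, 339 and 344 normalized counts under oil and 1159, 379 and 477 under tamoxifen (log2 fold change 0.79, and 0.31 without tamoxifen 1). The survival kinase Pim1, which phosphorylates BAD, had a log2 fold change of 0.45, and of 0.29 when tamoxifen 1 was left out. Those of Btrc and Ywhaz, a 14-3-3 protein that holds phosphorylated BAD, were -0.52 and -0.42, and without tamoxifen 1 they were -0.25 and -0.052. After GC correction they were -0.052 and -0.22.

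The p53 target list, which leaves out the members, had the highest median of the lists. Of 12 genes, 10 were tested, Fas and Tnfrsf10b having too few reads. In limma 0 passed an adjusted p of 0.05, 7 had an unadjusted p under 0.05 (4.47% of all genes), 5 were higher and 0 lower without overlap (7.86% and 9.69% of all genes), and the median log2 fold change was 0.72 against -0.017 over all genes. Cdkn1a, the cell cycle inhibitor p21, had 603, 487 and 614 normalized counts under oil and 2796, 1754 and 1898 under tamoxifen (log2 fold change 1.89, standard error 0.22, limma adjusted p = 0.266). Zmat3, an RNA-binding p53 target, had 927, 674 and 806 under oil and 1738, 1628 and 2039 under tamoxifen (log2 fold change 1.17, adjusted p = 0.426). The groups were well apart for both genes. DESeq2 on all 6 libraries called both (adjusted p = 7.95e-09 for Cdkn1a and 0.000336 for Zmat3), beside 71 of 24246 genes fitted (0.293%). On GC-corrected values limma called Cdkn1a (adjusted p = 0.0491) but not Zmat3 (adjusted p = 0.120), beside 2 of 12298 genes. Both were known from earlier results of these data when the list was written, so their direction adds no independent evidence. The whole list was chosen with such results known, so its counts and median add none either. Aen, a nuclease of the p53 response, had a log2 fold change of 0.71, and of 0.48 without tamoxifen 1. The membrane protein gene Perp, at 4.64 to 17.96 against 14.1 to 72.8 normalized counts, overlapped between the groups. Like Bcl2, it reached the filter in 1 library labelled oil and 3 labelled tamoxifen and so entered through the group where it was high. Among the 9 tested targets other than Perp, 6 were at an unadjusted p under 0.05 and the median log2 fold change was 0.71.

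Without tamoxifen 1, 9 of the 10 tested targets were at an unadjusted p under 0.05, beside 12.1% of all genes (8 of 9 when Perp is set aside), and 3 passed an adjusted p of 0.05 in limma, namely Cdkn1a (1.69, adjusted p = 0.00118), Zmat3 (1.19, adjusted p = 0.00808) and Trp53inp1 (1.78, adjusted p = 0.01002), beside 41 of all genes (0.333%). The median of the list was then 0.49. In the same fit 0 members passed, Bbc3 having the smallest adjusted p of them at 0.130. Without tamoxifen 1, DESeq2 called Cdkn1a, Zmat3, Trp53inp1, Aen (adjusted p = 0.00558) and Ccng1 (adjusted p = 0.000155), beside 231 of 23788 genes fitted (0.971%). With library weights in limma, these genes and Pidd1, Mdm2 and Perp passed, beside 6.36% of all genes. Perp again entered through the group where it was high. Ei24 (adjusted p = 0.0618) and Siva1 (adjusted p = 0.395) did not pass in that fit. Trp53 itself had a log2 fold change of 0.12 over all 6 libraries and of -0.022 after GC correction.

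**Figure D4:**
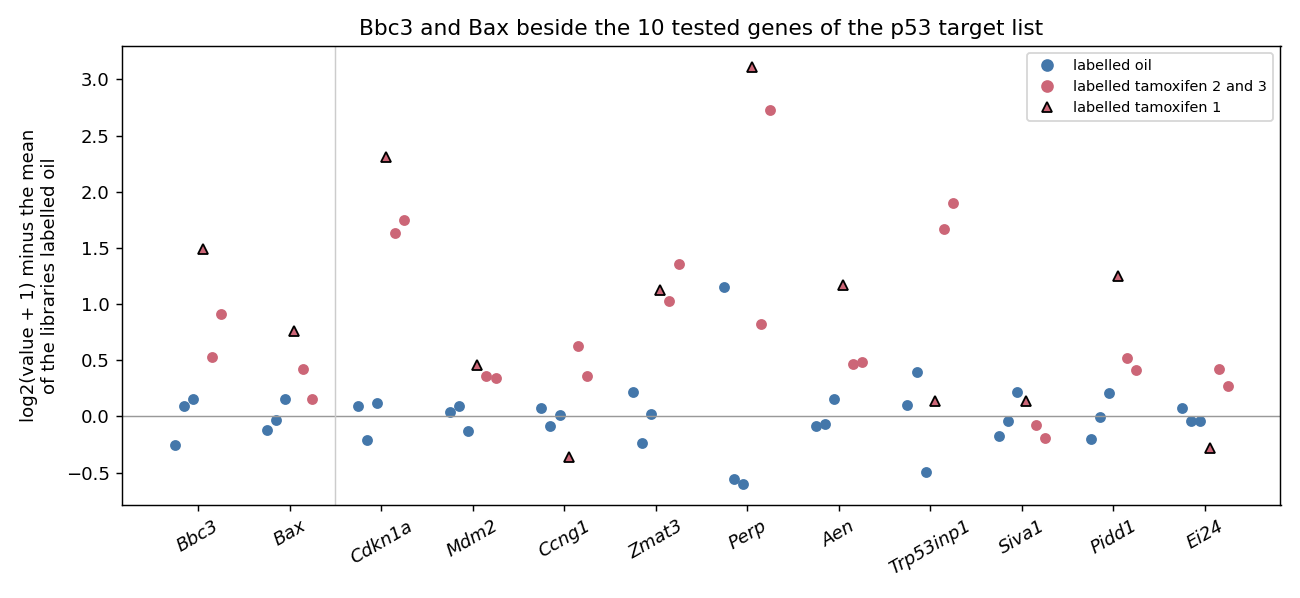
The vertical axis is log2(value + 1) minus the mean of the 3 libraries labelled oil, for Bbc3 and Bax at the left and the 10 tested genes of the p53 target list at the right. Points are single libraries (blue labelled oil, red labelled tamoxifen, triangle tamoxifen 1). Bbc3 lies at 1.49, 0.53 and 0.91 in the libraries labelled tamoxifen, and Cdkn1a at 2.31, 1.63 and 1.75.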

How the data were processed

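The 6 libraries are those of the sorted cells described above. Per the labels, the authors prepared libraries with a Nextera DNA Flex kit and used STAR, DESeq2 and mm10 (GRCm38). Versions, strand setting and filters are not given in the sources used here. The deposited values are a signal that the authors made by scaling each library's read counts with a single size factor. Of the values in every library, 100% were whole multiples of 1 step (tolerance 0.01), which gave back the reads. Unnamed rows (1832 of 55450, 0.0400% to 0.0614% of the reads) were left out. Named genes that reached 10 in 3 or more libraries were tested on log2(value + 1) with limma 3.58.1 (R 4.3.3, eBayes with trend), two-sided, with Benjamini-Hochberg adjustment over all genes at a threshold of 0.05. Fold changes on this scale understate the change of low genes. Each library came from a separate mouse. Alternatives were DESeq2 1.42.0, edgeR 4.0.16, other scalings, filters and pseudocounts, GC correction (loess, span 0.3) and each library left out. Library weights and the DESeq2 and edgeR fits without tamoxifen 1 were chosen after seeing the data. Members, lists and markers were chosen with earlier results of these data known. All members, Usp18, and up to 4 genes per other list with the smallest p were named, with list genes at 3 reads or fewer, and other genes were named after their values were seen. Coordinates and GC content come from GENCODE vM21, promoter windows from RefSeq GRCm38.p6. The fits were tested on simulated data. The results of some genes of the caspase and marker lists are not reported here, although the list counts include them.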

Additional observations from a re-analysis of the deposited data

How the results depend on the processing

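The number of members past an adjusted p of 0.05 was 0 in limma and under each other scaling, filter, pseudocount, GC correction and block tried, and with DESeq2 and edgeR on all 6 libraries. It was 1 (Bbc3) with DESeq2 without tamoxifen 1, where 231 of 23788 genes fitted were called (0.971%). It was 2 with library weights, where 6.36% of all genes were called, namely Bbc3 and Bcl2. Bcl2 entered the test through the group where it was high. With each library left out in turn the number past an adjusted p of 0.05 was 0 in limma. At a threshold of 0.1 the main limma fit also gave 0 members, while DESeq2 on all 6 libraries gave Bcl2 an adjusted p of 0.0821. The number at an unadjusted p under 0.05 was 2, beside 550 of 12298 genes. It was 1 with a filter of 1 CPM in 3 libraries, which drops Bcl2, beside 454 of 11146 genes. It was 5 with library weights, where 23.4% of all genes were, and 3 with edgeR on all 6 libraries, beside 594 of 12340 genes. It was 2 to 3 with a library left out, while the genes at that limit then numbered 225 to 1488 of the 12298 tested. The number of members whose groups do not overlap was 3, all higher, beside 7.86% of all genes. It was 2 with GC correction, where Bid overlapped, beside 7.25% of all genes. It was 3 to 4 with a library left out, 4 with TMM scaling and 2 with the 1 CPM filter. The shares of all genes in these last settings are not given here, so these counts are not read as a result. The replicate numbers do not pair the libraries (correlations of same-numbered deviations -0.0236, 0.0607 and -0.153). With the replicate block 0 members passed an adjusted p and 2 an unadjusted p, beside 0 and 426 of 12298 genes.

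The direction of Bcl2l1 changed to -0.11 with GC correction, with and without the block, -0.13 without tamoxifen 1, -0.12 with DESeq2 and -0.12 with edgeR on those 5 libraries, and -0.11 with library weights. Bad changed to -0.070 with GC correction, with and without the block, and to -0.13, -0.12, -0.12 and -0.14 in the same other fits. Bak1 changed to 0.070, 0.082 and 0.088 in the 3 fits without tamoxifen 1, and to 0.045 with library weights. With a library left out in turn, limma gave -0.13 to 0.24 for Bcl2l1, -0.13 to 0.36 for Bad and -0.29 to 0.070 for Bak1. Bnip3l changed to 0.036 with GC correction, with and without the block. The causes were not tested. Of 179 alternative values of the 9 tested members, 160 kept direction and side of the threshold, 16 changed direction and 3 passed the threshold. Of 359 alternative values of the other named genes, 339 kept both, 2 changed direction and 18 passed the threshold. Bcl2 at 7 to 61 reads is limited by depth, and Pmaip1 was not measurable.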
